A study of Mus musculus with 12 samples.

Results

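GABA-A receptor subunit genes were examined in pituitary tumors of POMC KO mice and in normal mouse pituitary. The genes were Gabra2, Gabra3, Gabra4, Gabra5, Gabrb1, Gabrb2 and Gabrg1, which make 7 of the 18193 genes that the array table names through a probe set of a single gene. Every probe set whose annotation names exactly 1 gene, that gene being among these 7, was kept, whatever its level. This gave 21 probe sets: 5 each for Gabra2 and Gabrb2, 4 for Gabrb1, 2 each for Gabra3, Gabra4 and Gabrg1, and 1 for Gabra5. Other subunits with no probe set of a single gene in the table were not analysed here.

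GABA-A receptors are pentameric chloride channels opened by gamma-aminobutyric acid (GABA), the main inhibitory transmitter of the adult brain. GABA binds between alpha and beta subunits, benzodiazepines bind between alpha and gamma subunits, and the subunits present set how strongly and for how long the channel opens. Melanotrophs, the POMC-producing cells of the intermediate lobe of the pituitary, are innervated by hypothalamic fibers that release dopamine and GABA, and GABA acting on these receptors controls their electrical activity and hormone release.

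The data consist of 12 Affymetrix Mouse Genome 430 2.0 arrays: 2 of homozygous POMC KO mice, which carry the knockout on both alleles, 8 of heterozygous POMC KO mice, which carry it on 1 allele, and 2 of normal mouse pituitary. The knockout was carried in the germline, so that every cell of the mouse carried it. The tumors arose spontaneously and no array animal was treated. The age and sex of the array animals are not given in the sources used here, and for the normal RNA the methods name pooled pituitary whereas the series text counts normal mice. If the normal arrays hold pools, their SD is not a spread between animals. Values are log2 signals normalized by the Robust Multichip Average (RMA), so that a difference of 1 is a doubling, and since each probe set binds with its own strength, levels were compared between samples and not between probe sets.

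Tumor arrays of successive numbers were near-identical. Within the 5 pairs the correlation across probe sets was 0.997 to 0.9978 and at most 4 probe sets differed by more than 2-fold, whereas arrays of different heterozygous pairs differed at 434 to 982 probe sets and the normal arrays at 310. Each pair was averaged and counted as 1 sample. This left 1 homozygous sample (arrays 1-2), 4 heterozygous samples (arrays 1-2, 3-4, 5-6 and 7-8) and 2 normal samples, and the lone homozygous sample was assumed to vary like the others. No label states this pairing, and in the series text each array stands for a mouse. Where nothing says that samples came from separate animals, p-values measure only the spread between these samples. Pomc itself was at 7.18 in the homozygous sample, against 15.25 ± 0.07 in the heterozygous samples and 15.09 ± 0.02 in the normal samples (SD, n = 4 and 2). Pax7, the transcription factor that specifies melanotrophs, was at 10.38 in the homozygous sample, at 11.19 ± 0.26 in the heterozygous samples and at 9.71 ± 0.29 in the normal samples. Xist, the transcript of the inactive X chromosome, was high in the homozygous sample (11.20) and in heterozygous samples 3-4 and 7-8 (10.93 and 11.25), and low in heterozygous samples 1-2 and 5-6 (4.58 and 5.0) and in both normal samples (5.07 and 4.57).

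The members differ in where they lie and in the sequence before their starts. In the mouse assembly GRCm38.p6, Gabrg1, Gabra2, Gabra4 and Gabrb1 stand next to each other on chromosome 5 with only Cox7b2 among them, whereas Gabra3 lies on X beside Gabrq, Gabra5 on chromosome 7 beside Gabrg3, and Gabrb2 on chromosome 11 beside Gabra6. Gabra4 and Gabrb1 run on opposite strands, and the first annotated start of Gabrb1 lies at -387 bp from that of Gabra4, so that their 5' ends overlap. RefSeq promoters were found for all 7 members, 11 in all. The 250 bases before the start are shown for the 3 genes with a probe set that rose in heterozygous tumors (Gabra3, Gabra4 and Gabrg1) and for Gabrb2, which rose in the homozygous sample. They are written 5' to 3' on the strand of the gene. Capitals mark TATAAA, the core of the TATA box, which in Gabra3 lies on the opposite strand and so reads TTTATA.
Gabra3 promoter, chrX:72656920-72657169, minus strand, GRCm38.p6, the second of 2 annotated starts: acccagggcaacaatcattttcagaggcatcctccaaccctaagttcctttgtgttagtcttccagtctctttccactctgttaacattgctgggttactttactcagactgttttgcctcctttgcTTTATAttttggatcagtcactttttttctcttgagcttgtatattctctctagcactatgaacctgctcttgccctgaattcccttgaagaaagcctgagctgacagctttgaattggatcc
Gabra4 promoter, chr5:71658309-71658558, minus strand, GRCm38.p6: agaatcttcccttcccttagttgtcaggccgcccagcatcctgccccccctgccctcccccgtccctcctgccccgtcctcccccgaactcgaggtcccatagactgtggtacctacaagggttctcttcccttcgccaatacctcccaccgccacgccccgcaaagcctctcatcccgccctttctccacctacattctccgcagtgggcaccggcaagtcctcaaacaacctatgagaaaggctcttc
Gabrg1 promoter, chr5:70842618-70842867, minus strand, GRCm38.p6: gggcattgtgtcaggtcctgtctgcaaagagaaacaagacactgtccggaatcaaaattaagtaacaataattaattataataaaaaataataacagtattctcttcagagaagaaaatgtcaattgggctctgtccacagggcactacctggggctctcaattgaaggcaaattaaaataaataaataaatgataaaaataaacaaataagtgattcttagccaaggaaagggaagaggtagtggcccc
Gabrb2 promoter, chr11:42420190-42420439, plus strand, GRCm38.p6, the first of 3 annotated starts: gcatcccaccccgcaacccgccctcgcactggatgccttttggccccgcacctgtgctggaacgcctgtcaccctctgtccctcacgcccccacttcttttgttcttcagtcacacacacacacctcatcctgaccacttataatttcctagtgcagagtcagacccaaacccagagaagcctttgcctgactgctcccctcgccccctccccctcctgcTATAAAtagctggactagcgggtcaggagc

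These promoters differed in base composition. G and C made up 42.4% of the Gabra3 promoter shown, 61.2% of that of Gabra4, 35.6% of that of Gabrg1 and 58.8% of that of Gabrb2, and the median of all 32851 mouse promoters was 52.4%. TATAAA lay at -30 to -25 in Gabrb2, counted back from the start, and at -123 to -118 in Gabra3. Over both strands it was found in 3 of the 11 member promoter windows and in 12.4% of all promoters. The windows of the 2 Gabra3 starts overlap, and their matches are the same bases, so that the member promoters hold 2 distinct sites. TAATCC, bound by the Pitx factors of the pituitary, was found in 1 of 11 (Gabra2, at -139 to -134) and in 6.25% of all promoters. TCACACC, bound by T-box factors such as Tbx19, the regulator of the Pomc lineages, was found in 0 of 11 and in 3.33% of all. TGACGTCA, the cyclic AMP response element, was found in 0 of 11 and in 1.55% of all. No match overlapped one of another motif, and a match is a description of the letters only.

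Of the 21 member probe sets, 13 reached the overall median value (5.74) in 2 or more arrays and were tested, 3 each for Gabra2 and Gabrb1, 2 each for Gabra3, Gabra4 and Gabrb2, 1 for Gabrg1 and 0 for Gabra5. The 2 Gabrb2 probe sets passed this limit only through the homozygous arrays, and the 2 Gabra3 probe sets only through the tumor arrays. A probe set was called with an adjusted p under 0.05 (limma, Benjamini-Hochberg over all 24486 tested probe sets) and a difference over 2-fold. In heterozygous tumors against normal pituitary 4 member probe sets were called higher and 0 lower, where 4.91% of all tested probe sets were called higher and 3.77% lower. The median log2 difference of the 13 tested member probe sets was 0.53, against 0.03 over all tested probe sets. In homozygous tumor against normal pituitary 3 were called higher and 0 lower, against a background of 1.26% and 1.07%, with medians of 0.73 and 0.01. In homozygous against heterozygous tumors 2 were called higher and 0 lower, against 0.212% and 0.0368%, with medians of 0.10 and -0.02. At an unadjusted p under 0.05, 9, 4 and 4 member probe sets passed in these comparisons. Several of these are probe sets of the same gene. The share of all tested probe sets at this limit was not determined, so that these counts cannot be read as an excess. In the one-way test over the 3 genotypes 6 of the 13 were called, against 8.65% of all. All homozygous calls, against normal or heterozygous samples, were of Gabra3 or Gabrb2 probe sets. Both Gabra3 probe sets are also among the heterozygous calls, and all tested probe sets of both genes are among the one-way calls. As these entered the test only through groups where they were high, the counts are not independent of the limit and cannot be weighed against the background shares. The comparisons with normal pituitary share the same 2 normal samples.

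With each gene represented by its tested probe set of highest mean, 2 of the 6 tested member genes were called higher in heterozygous tumors (Gabra3 and Gabrg1), against 5.56% of 12316 genes higher and 4.55% lower. In homozygous tumor 2 were called higher (Gabra3 and Gabrb2), against 1.44% higher and 1.32% lower. In homozygous against heterozygous tumors 1 was called higher (Gabrb2), against 0.244% higher and 0.0487% lower. Gabra4 was called through the other of its probe sets only. The gene counts that include Gabra3 or Gabrb2 depend on the limit on low values in the same way.

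**Figure D1:**
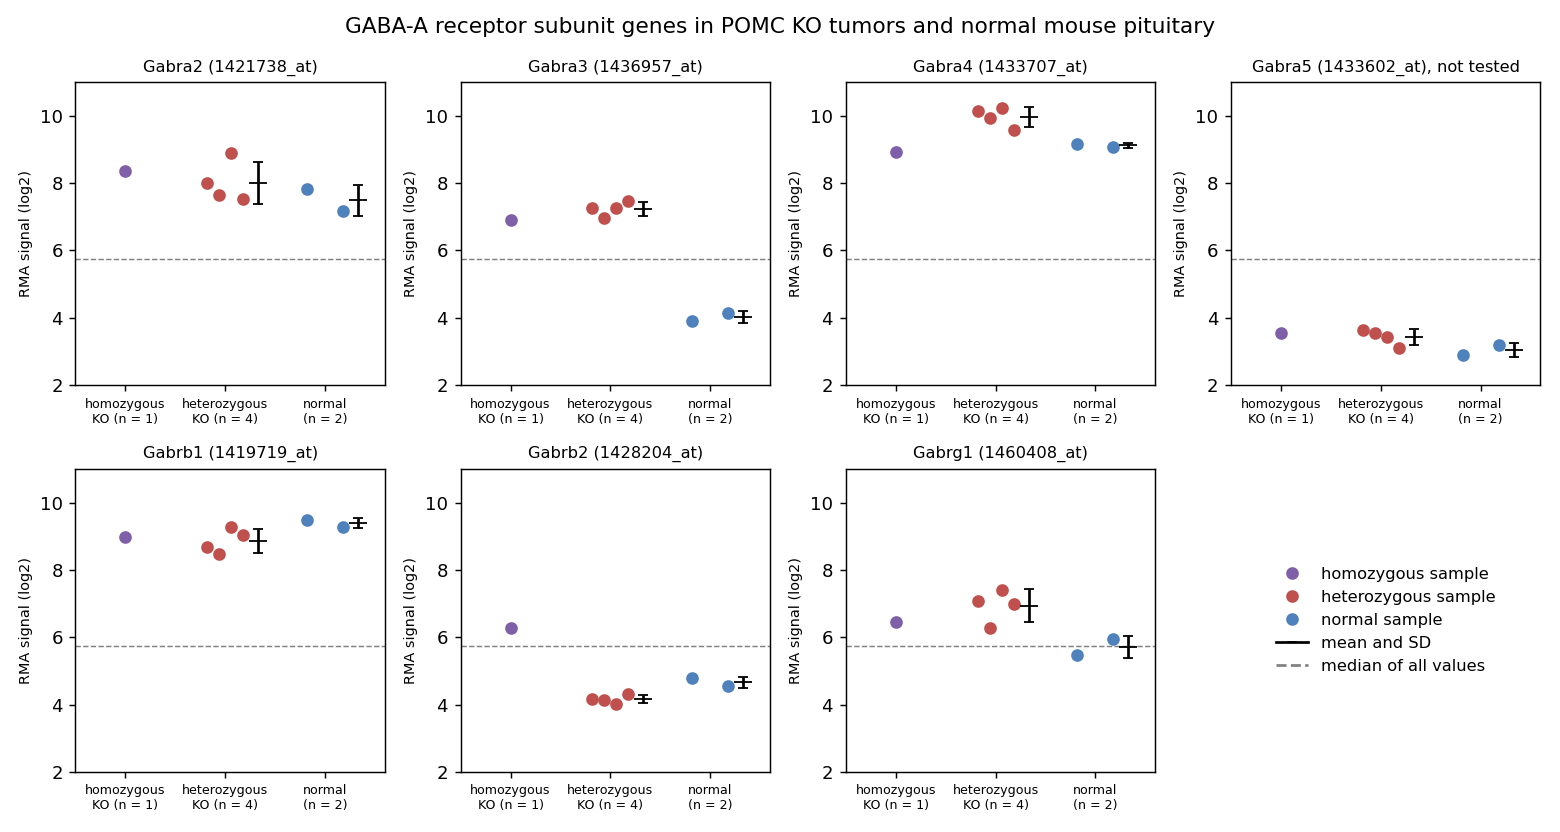
RMA signal on the log2 scale of the representative probe set of each of the 7 genes, in the homozygous sample, the 4 heterozygous samples and the 2 normal samples, with the mean and SD of the groups that have more than 1 sample. The dashed line is the median of all values (5.74). All tumor samples of Gabra3 lie above both normal samples, Gabrb2 crosses the dashed line in the homozygous sample only, and Gabra5 stays under it throughout.

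Gabra3, the alpha subunit found in brain on monoaminergic and thalamic reticular neurons, had the largest difference of the members between tumor and normal pituitary. Its probe set 1436957_at was at 6.92 in the homozygous sample, at 7.25, 6.97, 7.26 and 7.48 in the heterozygous samples, and at 3.90 and 4.15 in the normal samples. The tumor samples lay within 1 log2 unit of each other and none came near the normal samples, which were below the median of all values. This probe set was higher in heterozygous tumors (log2 3.21, SE 0.16, 95% interval 2.83 to 3.59, adjusted p = 0.000175), as it was in the homozygous sample (log2 2.89, SE 0.23, 95% interval 2.35 to 3.43, adjusted p = 0.00419). With normal values this low the size of the difference is uncertain, and as the mean over both Gabra3 probe sets it was 2.30 in the homozygous sample and 2.47 in heterozygous tumors. Both Gabra3 probe sets were tested only because the tumor arrays passed the limit on low values, so that the calls of Gabra3 are not independent of that limit. In bulk tissue such as this, more cells of a type and more RNA per cell cannot be told apart.

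The other Gabra3 probe set, 1421263_at, was at 6.4 in the homozygous sample, at 6.65, 5.89, 6.53 and 6.66 in the heterozygous samples, and at 4.45 and 4.95 in the normal samples. The tumor samples again stood above both normal samples. The heterozygous difference was log2 1.73 (SE 0.25, adjusted p = 0.00353) and was called. The homozygous difference was nearly as large, log2 1.70 (SE 0.35), but missed the threshold (adjusted p = 0.0550), and it passed with the pair as a random block (0.0142) and without heterozygous sample 3-4 (0.0347). It also passed where the near-identical homozygous arrays were counted as 2 samples (adjusted p = 0.00243 with 12 separate arrays). Between homozygous and heterozygous tumors the difference was -0.32 (95% interval -0.81 to 0.17, adjusted p = 0.751) for the first probe set and -0.03 (-0.79 to 0.72) for the other, so that a difference of 2-fold lies outside both intervals.

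**Figure D2:**
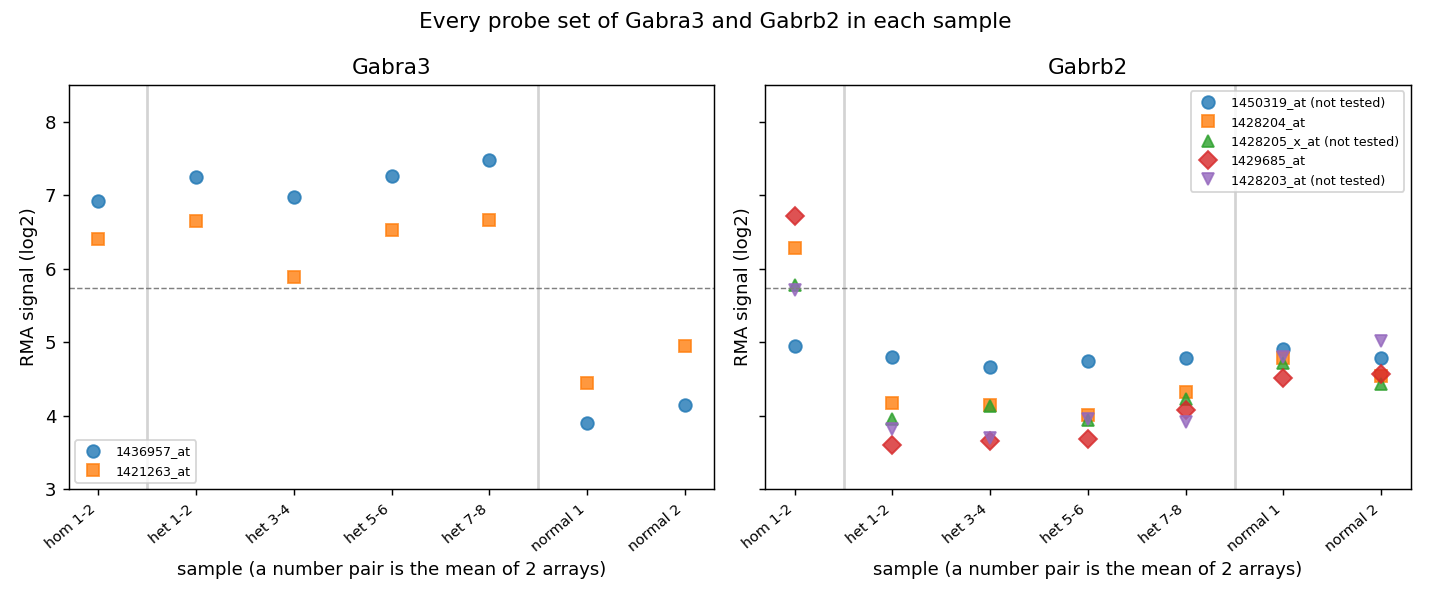
RMA signal on the log2 scale of all probe sets of Gabra3 and Gabrb2 in the homozygous sample (left of the first grey line), the 4 heterozygous samples and the 2 normal samples (right of the second). Both Gabra3 probe sets are high in all tumor samples, whereas 4 of the 5 Gabrb2 probe sets are high in the homozygous sample alone and the fifth, 1450319_at, stays between 4.66 and 4.95.

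Gabra4 encodes an alpha subunit of receptors that do not respond to classic benzodiazepines and that often lie outside synapses together with the delta subunit. Its probe set 1429330_at was at 7.67 in the homozygous sample, at 8.45, 8.47, 8.83 and 8.22 in the heterozygous samples, and at 7.31 and 6.87 in the normal samples. The heterozygous samples lay above the homozygous one, and that one above both normal samples. The difference from normal was log2 1.41 in heterozygous tumors (2.65-fold, SE 0.20, adjusted p = 0.00311) and 0.59 in the homozygous sample (SE 0.28, adjusted p = 0.324). Probe set 1433707_at was at 8.93 in the homozygous sample, at 10.14, 9.93, 10.24 and 9.57 in the heterozygous samples, and at 9.17 and 9.08 in the normal samples. Here the homozygous sample lay just below the normal samples and the heterozygous samples above them. The heterozygous difference was log2 0.85 (1.80-fold, SE 0.19, adjusted p = 0.0205), under the 2-fold limit, and the homozygous difference was -0.19 (SE 0.27, adjusted p = 0.766).

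The probe sets of Gabra4 thus shared the order of heterozygous over homozygous but differed on where normal pituitary stood. The homozygous sample differed from the heterozygous samples by log2 -1.04 (SE 0.25, adjusted p = 0.237) for 1433707_at and -0.82 (SE 0.25, adjusted p = 0.365) for 1429330_at, and neither was called. The first was called without heterozygous sample 7-8 (-1.17, adjusted p = 0.0417), and also where the near-identical homozygous arrays were counted as 2 samples (-1.04, adjusted p = 0.00541 with 12 separate arrays). The heterozygous difference of 1433707_at from normal passed 2-fold with Xist as a covariate (1.06, adjusted p = 0.00517), with the low-Xist samples alone (1.07, adjusted p = 0.00577) and in the arrays numbered 1 and 2, with the number as a block or without (1.02, adjusted p = 0.00106 and 0.000296).

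Gabra2, whose product is concentrated on the axon initial segment of brain neurons, was not called in any comparison. Its brightest probe set, 1421738_at, was at 8.35 in the homozygous sample, at 8.01, 7.64, 8.89 and 7.52 in the heterozygous samples, and at 7.82 and 7.16 in the normal samples. The heterozygous samples spread more widely than the groups differed, and they overlapped the normal samples. The difference from normal was log2 0.53 in heterozygous tumors (SE 0.39, adjusted p = 0.366) and 0.86 in the homozygous sample (SE 0.55, adjusted p = 0.460), with 95% intervals of -0.38 to 1.43 and -0.41 to 2.14. The other tested probe sets, 1455444_at and 1443865_at, differed by 0.46 and 0.63 in heterozygous tumors and by 0.56 and 0.77 in the homozygous sample, again uncalled. With Xist as a covariate 1443865_at was called in heterozygous tumors (1.05, adjusted p = 0.0306). In all 3 tested probe sets heterozygous sample 5-6 was the highest sample. The untested probe sets 1449807_x_at and 1420299_at stayed between 2.73 and 3.71 in every sample.

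Gabra5, the alpha subunit of extrasynaptic receptors of hippocampal neurons, was not above the median of all values in any array. Its only probe set, 1433602_at, was at 3.54 in the homozygous sample, at 3.63, 3.55, 3.43 and 3.11 in the heterozygous samples, and at 2.89 and 3.20 in the normal samples. It was not tested, and at this level a difference of this size cannot be read.

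Among the beta subunits, which complete the GABA binding site and form much of the channel, Gabrb2 was high in the homozygous sample alone. Probe set 1429685_at was at 6.71 in the homozygous sample, at 3.60, 3.65, 3.68 and 4.07 in the heterozygous samples, and at 4.51 and 4.56 in the normal samples. Probe set 1428204_at was at 6.28 in the homozygous sample, at 4.17, 4.14, 4.01 and 4.32 in the heterozygous samples, and at 4.78 and 4.54 in the normal samples. For both probe sets the heterozygous samples were lowest, and only the homozygous sample lay above the median of all values. Both homozygous arrays were above it for these probe sets.

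Against heterozygous tumors the homozygous sample was higher by log2 2.96 (SE 0.20, adjusted p = 0.00210) for 1429685_at and by 2.12 (SE 0.17, adjusted p = 0.00368) for 1428204_at. Against normal pituitary it was higher by 2.17 (SE 0.22, adjusted p = 0.00811) and by 1.62 (SE 0.19, adjusted p = 0.0110). Since these probe sets were tested only because the homozygous arrays passed the limit on low values, the calls of Gabrb2 are not independent of that limit. As the mean over all 5 probe sets the difference was 1.77 from heterozygous tumors and 1.18 from normal pituitary. Without normal sample 1 the differences from normal were 2.15 (adjusted p = 0.0582) and 1.73 (0.0515), and without normal sample 2 they were 2.19 (0.0545) and 1.5 (0.0650), with an adjusted p over 0.05 in each case. Against the high-Xist heterozygous samples alone, 3-4 and 7-8, the homozygous difference was 2.85 (adjusted p = 0.0677) and 2.05 (adjusted p = 0.0706). All of these values rest on 1 homozygous sample.

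A pair of further Gabrb2 probe sets that were not tested had the same order of groups. Probe set 1428205_x_at was at 5.78 in the homozygous sample, at 3.94 to 4.23 in the heterozygous samples, and at 4.71 and 4.43 in the normal samples. Probe set 1428203_at was at 5.71 in the homozygous sample, at 3.69 to 3.95 in the heterozygous samples, and at 4.80 and 5.02 in the normal samples. The fifth, 1450319_at, did not separate the groups (4.95 in the homozygous sample, 4.66 to 4.80 in heterozygous samples, 4.90 and 4.78 in normal samples). In heterozygous tumors against normal pituitary, where all samples lay below the median of all values, the tested probe sets were at -0.79 (adjusted p = 0.0116) and -0.50 (adjusted p = 0.0337), under the 2-fold limit.

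Gabrb1, the other beta subunit gene, was not called in any comparison. Probe set 1419719_at was at 8.97 in the homozygous sample, at 8.67, 8.48, 9.28 and 9.03 in the heterozygous samples, and at 9.49 and 9.29 in the normal samples. All tumor samples lay below both normal samples, by less than 2-fold on average, but heterozygous sample 5-6 and normal sample 2 were nearly equal (9.28 and 9.29). The difference from normal was log2 -0.53 in heterozygous tumors (SE 0.22, adjusted p = 0.135) and -0.42 in the homozygous sample (SE 0.32, adjusted p = 0.546). Probe sets 1435095_at and 1443205_at differed by -0.54 (adjusted p = 0.0531) and -0.63 (adjusted p = 0.164) in heterozygous tumors and by -0.45 and -0.29 in the homozygous sample. For 1443205_at the groups overlapped, with 6.93 in heterozygous sample 5-6 and 6.76 in the homozygous sample against 6.75 in normal sample 2. The untested 1443834_at stayed between 3.44 and 3.83. In heterozygous tumors the 3 tested Gabrb1 probe sets thus had negative differences where those of its neighbor Gabra4 had positive ones.

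Gabrg1 encodes a gamma subunit with a narrow distribution in brain, where it is found in glia and in a few nuclei. Probe set 1460408_at was at 6.45 in the homozygous sample, at 7.08, 6.27, 7.41 and 7.00 in the heterozygous samples, and at 5.48 and 5.95 in the normal samples. All tumor samples lay above both normal samples, and heterozygous sample 3-4 and the homozygous sample were nearest to them. The heterozygous difference was log2 1.23 (2.34-fold, SE 0.30, adjusted p = 0.0272) and was called, and the homozygous difference was 0.73 (SE 0.43, adjusted p = 0.423). The call was lost without heterozygous sample 1-2 (1.18, adjusted p = 0.0632), without normal sample 1 (0.99, adjusted p = 0.185) and without normal sample 2 (1.46, adjusted p = 0.0728). With the low-Xist samples alone, heterozygous 1-2 and 5-6 against both normal samples, it was 1.53 (adjusted p = 0.00663). The untested 1427227_at was also higher in all tumor samples than in both normal samples, at 4.66 in the homozygous sample, 5.21, 4.18, 5.24 and 4.46 in heterozygous samples, and 3.23 and 3.92 in normal samples.

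**Figure D3:**
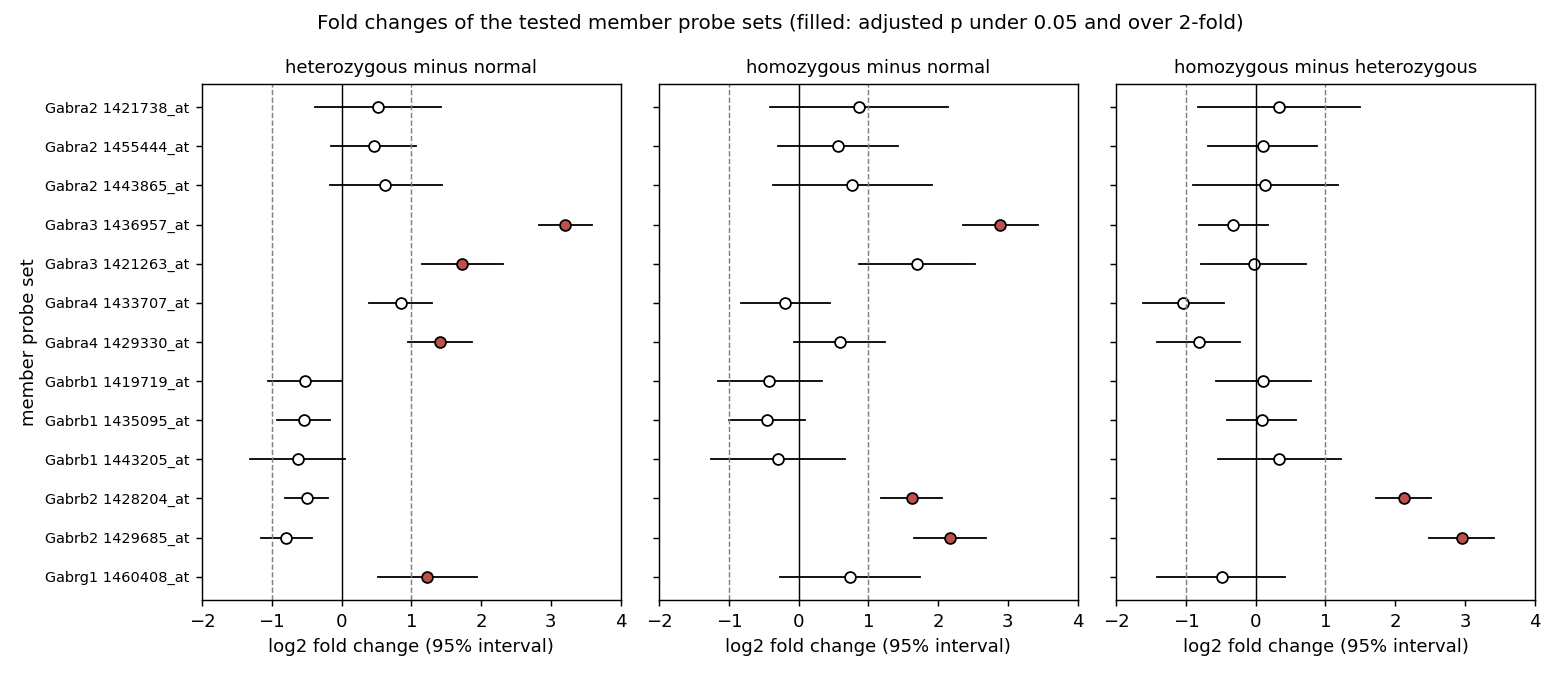
Log2 fold changes of the 13 tested member probe sets with 95% intervals, for heterozygous minus normal, homozygous minus normal and homozygous minus heterozygous. Filled points passed an adjusted p of 0.05 and a 2-fold difference (dashed lines). Both Gabra3 points are filled for heterozygous minus normal, and 1436957_at alone of them for homozygous minus normal. Both Gabrb2 points are filled in both comparisons of the homozygous sample. For heterozygous minus normal Gabrg1 is filled, and of Gabra4 only 1429330_at.

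The low-Xist samples gave a comparison of heterozygous tumors and normal pituitary at like Xist levels. With heterozygous samples 1-2 and 5-6 against both normal samples, 5 member probe sets were called higher and 0 lower. This fit had 2 residual degrees of freedom. The count includes both Gabra3 probe sets, which entered the test only through tumor arrays. It is given without the share of all tested probe sets called in this fit and cannot be read as an excess. The Gabra3 differences were log2 3.23 (adjusted p = 0.000657) and 1.89, and that of Gabra4 1429330_at was 1.55. The homozygous sample had no normal sample of like Xist level, so that for it genotype and Xist level cannot be told apart in the comparison with normal pituitary.

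The genes whose profiles over the 7 samples were nearest to each called representative were found by the root mean square difference of centered log2 values among 12315 other genes. For Gabra3 they were Pole2 (0.326), Ccne2 (0.333) and Cdt1 (0.342), which encode a DNA polymerase subunit, a cyclin and a replication licensing factor. For Gabrb2 they were Hgh1 (0.161), Kcnip4 (0.270), a potassium channel interacting protein, and Akap6 (0.276), an anchoring protein for kinase A. For Gabrg1 they were Sprn (0.157), Actrt3 (0.18) and Glra2 (0.185), a glycine receptor alpha subunit. The points are 7 samples of 3 genotypes, and genes that differ between the genotypes by like amounts come out as near.

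The rest of GABA and glycine signaling was described from a list of 59 genes, of which 50 had a probe set of a single gene and 35 were tested. In heterozygous tumors 2 rose and 1 fell, where 5.56% of genes were called higher and 4.55% lower, and the median difference was 0.00. In homozygous against normal and homozygous against heterozygous samples 0 were called, with medians of -0.04 and -0.01. By group, 1 of 12 further GABA-A subunit genes was tested (Gabrd), 1 of 2 GABA-B receptor genes, 6 of 10 genes of GABA synthesis, packaging, uptake and breakdown, 3 of 4 chloride transporters, 18 of 21 genes of receptor assembly and trafficking, 4 of 5 modulators and 2 of 5 glycine receptor genes.

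Gad2, which encodes an enzyme that makes GABA, was at 7.56 in the homozygous sample, at 8.07, 9.86, 8.05 and 9.47 in the heterozygous samples, and at 6.30 and 6.62 in the normal samples. All tumor samples were above both normal samples, and the high-Xist heterozygous samples 3-4 and 7-8 were the highest. It was higher by log2 2.40 in heterozygous tumors (SE 0.54, adjusted p = 0.0187) and the homozygous difference of 1.10 was not called (SE 0.76, adjusted p = 0.501). Glra2 was at 9.15 in the homozygous sample, at 9.13, 8.68, 9.84 and 9.32 in the heterozygous samples, and at 8.00 and 8.31 in the normal samples. It was higher by 1.09 in heterozygous tumors (SE 0.29, adjusted p = 0.0364), and the homozygous difference was 0.99 (SE 0.41, adjusted p = 0.266). Slc6a11, a GABA transporter of astrocytes, was at 5.13 in the homozygous sample, at 4.88, 4.88, 4.91 and 5.12 in the heterozygous samples, and at 5.89 and 6.60 in the normal samples. It fell by 1.30 in heterozygous tumors (log2 -1.30, SE 0.20, adjusted p = 0.00450), with -1.12 in the homozygous sample (SE 0.28, adjusted p = 0.0927). Slc6a11 was tested only through the 2 normal arrays, which alone reached the overall median, and the filter on the mean drops it. Without normal sample 1 or without normal sample 2, 0 genes of the list were called higher, so that the calls of Gad2 and Glra2 were lost in both cases.

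The brightest probe sets of the list, which are no ranking of the genes, were those of the trafficking genes Gabarap, Gabarapl1 and Gabarapl2, with heterozygous differences of -0.30, 0.10 and -0.03, none of them called. Of the further GABA-A subunits Gabrd, the delta subunit, was at 5.07 in the homozygous sample, at 5.92, 7.19, 5.07 and 6.20 in the heterozygous samples, and at 4.81 and 4.88 in the normal samples (heterozygous difference 1.25, adjusted p = 0.112). Akr1c14, an enzyme of neurosteroid synthesis, was singled out after its values were seen. It was at 9.83 in the homozygous sample, at 3.64, 6.11, 4.41 and 8.74 in the heterozygous samples, and at 3.22 and 3.92 in the normal samples. Its high samples were those with high Xist, and its differences from normal were not called (2.16 in heterozygous tumors, adjusted p = 0.261, and 6.26 in the homozygous sample, adjusted p = 0.125).

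**Figure D4:**
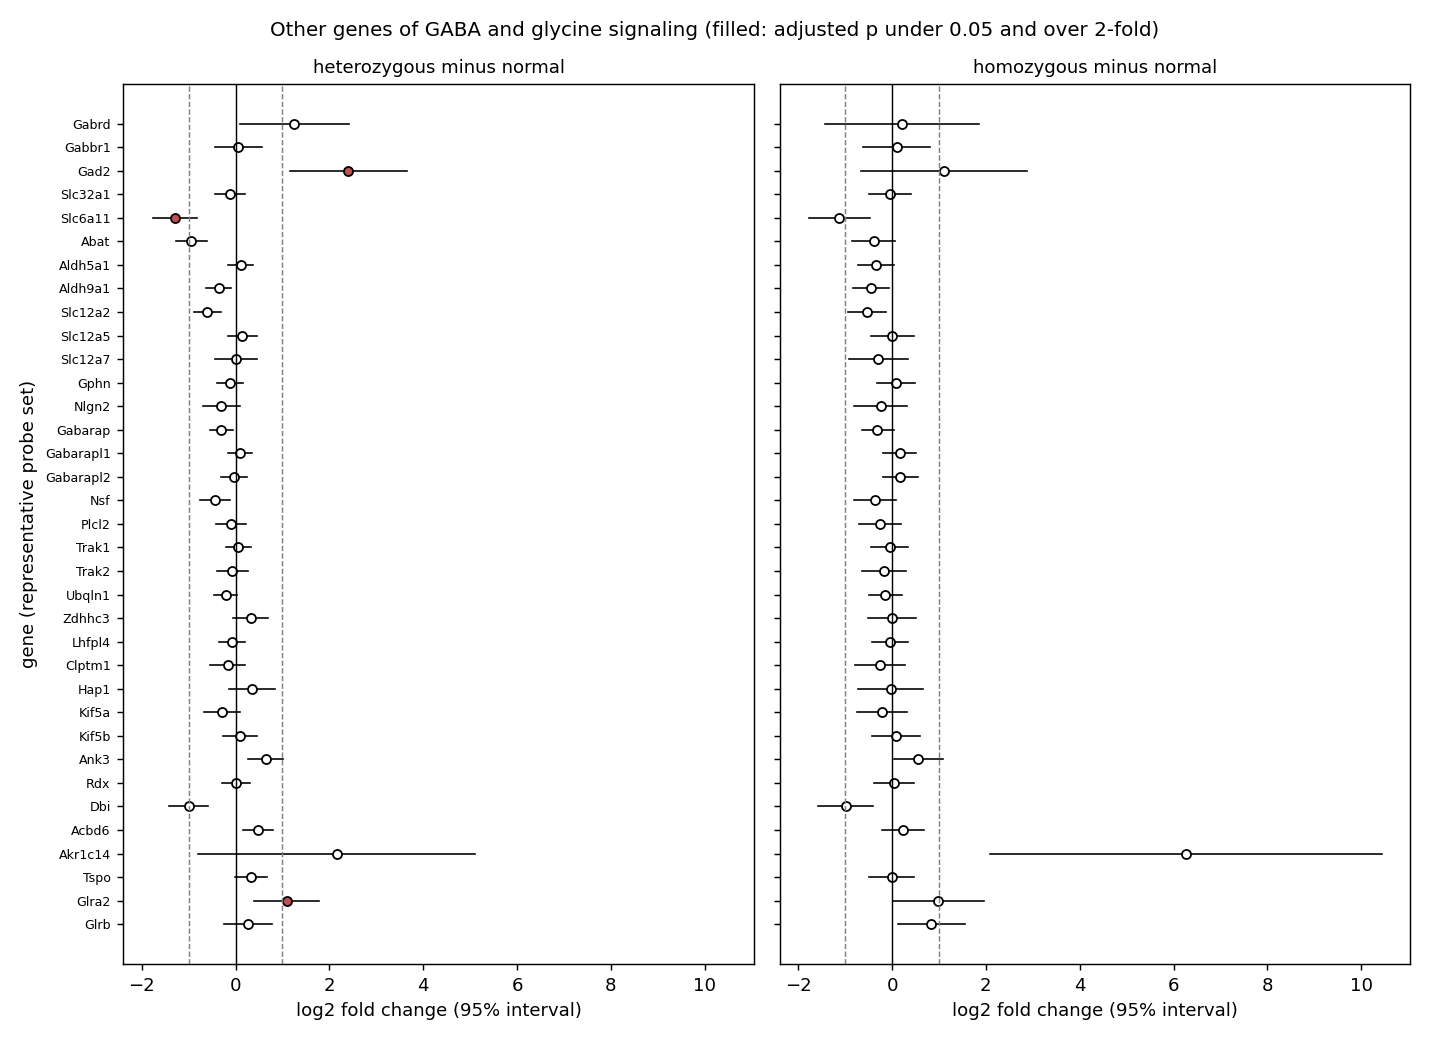
Log2 fold changes with 95% intervals of the 35 tested genes of the GABA and glycine list outside the 7 members, for heterozygous minus normal and homozygous minus normal. Filled points passed an adjusted p of 0.05 and a 2-fold difference (dashed lines). Gad2, Glra2 and Slc6a11 are filled in heterozygous tumors, and no point is filled for the homozygous sample.

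Markers of some other cell types were called in some of the same comparisons. Over all tested genes 5.56% were called higher and 4.55% lower in heterozygous tumors against normal. In the homozygous sample these shares were 1.44% and 1.32% against normal, and 0.244% and 0.0487% against heterozygous tumors. Of 9 neuron markers, all tested, 1 rose in heterozygous tumors (Rbfox3) and 3 fell (Nefm, Avp and Oxt), and 0 were called in the homozygous sample against normal. In the homozygous sample against heterozygous tumors 1 was higher (Oxt, 1.94, adjusted p = 0.0419). The summed log2 level was 82.8 in the homozygous sample, 71.3 to 78.4 in heterozygous samples and 82.7 to 83.5 in normal samples. Of 11 glial markers 10 had a probe set and 6 were tested. In heterozygous tumors 3 fell and in the homozygous sample 1 fell (Slc1a3), and the summed level was 63.6 in the homozygous sample, 60.8 to 62.9 in heterozygous samples and 66.7 to 68.1 in normal samples. Of 12 macrophage markers, all tested, 3 rose in the homozygous sample and 10 in heterozygous tumors, and the summed level was 95.5 in the homozygous sample, 100.02 to 108.68 in heterozygous samples and 79.9 to 83.5 in normal samples. Among those that rose, Adgre1, Mrc1 and Fcgr3 reached the overall median in tumor arrays only. Their calls are not independent of the limit on low values.

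Some endocrine markers were called as well. Of 5 corticotroph markers 4 were tested. Crhr1 (2.25, adjusted p = 0.00368) and Neurod1 (2.80, adjusted p = 0.00294) were higher in the homozygous sample than in heterozygous tumors. In heterozygous tumors both were lower than in normal pituitary (-1.44 and -2.84). Both genes were tested only through homozygous and normal arrays, so that these calls are not independent of the limit on low values. In homozygous against heterozygous tumors Tbx19 was at -0.43 and not called, and Avpr1b was at -0.13 and not tested. Pomc was lower in the homozygous sample than in heterozygous tumors (-8.07). The summed level was 34.9 in the homozygous sample, 38.1 to 39.2 in heterozygous samples and 42.6 to 43.0 in normal samples. This sum includes Pomc, the gene knocked out, which lowers it in the homozygous sample. Against normal pituitary that sample differed by 0.80 for Crhr1, -0.04 for Neurod1, -0.10 for Tbx19 and -0.68 for the untested Avpr1b. Of 5 gonadotroph markers 1 fell in the homozygous sample (Nr5a1) and 4 in heterozygous tumors (summed level 43.5 in the homozygous sample, 31.2 to 39.9 in heterozygous samples, 55.0 in both normal samples). Gnrhr and Nr5a1, both among the heterozygous calls, reached the overall median in homozygous and normal arrays only. Their calls are not independent of the limit on low values. Of 5 thyrotroph markers 2 fell in the homozygous sample and 4 in heterozygous tumors (summed level 46.3 in the homozygous sample, 33.3 to 41.6 in heterozygous samples, 52.5 to 52.8 in normal samples). Trhr was higher in the homozygous sample than in heterozygous tumors (2.43, adjusted p = 0.0234). It too was tested only through homozygous and normal arrays, so that its call is not independent of the limit on low values. Of 6 melanotroph markers 4 had a probe set and were tested. In heterozygous tumors 1 rose (Pax7) and in the homozygous sample 1 fell (Pomc, the gene knocked out). The summed levels were 37.6 in the homozygous sample, 47.0 to 48.6 in heterozygous samples and 44.7 to 45.2 in normal samples. Pomc is part of this sum and lowers it in the homozygous sample. For the other tested melanotroph markers that sample differed from normal by 0.66 (Pax7), -0.10 (Tbx19) and 0.01 (Drd2), none called. The part of these cell types in the differences of the receptor subunits was not tested.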

How the data were processed

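The values are the authors' deposited log2 RMA signals from total RNA extracted with TRIzol. RMA was run in Affymetrix Expression Console per the labels (version not stated) or in GeneSpring GX per the methods. RMA fits all arrays together and brings them to a common distribution. No detection calls were used. Of 45101 probe sets, 34945 named 1 gene, 932 several, 9160 none and 64 were controls. Paired tumor arrays were averaged, and limma 3.58.1 in R 4.3.3 was fitted to the 7 samples with all genotypes in 1 model (4 residual degrees of freedom) and tested on simulated data. The number of samples limits the precision. Probe sets were tested at 5.74 or more in at least 2 arrays, and called at an adjusted p under 0.05 and over 2-fold, the limits in the methods. The genes named are all 7 members, listed pathway genes that were called or had the 3 highest means, and the 3 genes nearest each called member. Array numbers did not pair the genotypes (correlations of deviations 0.068, -0.023 and -0.003). The alternatives were 12 separate arrays, random and replicate blocks, other filters and scalings, Xist, other moderation and samples left out. The members, lists and tests were chosen with earlier results of these data known. Promoters came from RefSeq (GRCm38.p6).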

Additional observations from a re-analysis of the deposited data

Results flagged for a closer look

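The change of Gabrb2 from normal pituitary differed between the tumor genotypes. By the test of that difference in limma, the homozygous sample was higher than the heterozygous samples by log2 2.12 (adjusted p = 0.00368) for probe set 1428204_at, with the homozygous sample above and all 4 heterozygous samples below both normal samples. This probe set was tested only because both homozygous arrays passed the limit on low values, so that the p-value is not independent of the filter. The homozygous group is 1 sample, and its Xist level matched that of only 2 of the 4 heterozygous samples.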

How the results depend on the processing

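Counts of called members in heterozygous tumors against normal were 3 to 6 under all alternatives (4 as reported), and 1 of them was lower with no filter on low values. Calls over all tested probe sets moved too, with 2126 as reported, 1802 with the filter on the mean and 2806 with the replicate block. Member probe sets tested were 11 with the filter on the mean and 21 with no filter. The ranges of member counts given here therefore do not measure how stable the members are. In homozygous tumor against normal they were 1 with probe sets kept by a mean at the median or above, which drops Gabrb2, and 1 to 4 with each sample left out, the lowest without normal replicate 1 or 2, against 3 as reported. In homozygous against heterozygous tumors they were 4 with no filter, 0 with the filter on the mean and 0 with the high-Xist samples only, a fit with 1 residual degree of freedom, against 2 as reported. With samples left out they were 2 to 3. The one-way count was 4 to 8. The fits to samples of 1 Xist level were added after the data were seen.

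Called pathway genes in heterozygous tumors were 5 with the replicate block of the arrays numbered 1 and 2 and 5 in the same 6 arrays without it, and 1 to 4 with each sample left out, the lowest without normal replicate 2. In homozygous tumor against normal, with 0 as reported, they were 2 with 12 separate arrays, 2 with the random block, 3 with the replicate block, 3 in the same arrays without it, 1 with Xist as a covariate, and 0 to 1 with samples left out, the highest without heterozygous sample 7-8. In homozygous against heterozygous tumors they were 2 with the replicate block and 2 in the same arrays without it. The numbers do not pair the samples, and in those 6 arrays the block changed no count of calls given here.

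Differences near 0 changed sign, none of them called. For homozygous minus normal, Gabra4 1433707_at was 0.26 with Xist as a covariate, and Gabrb1 1443205_at was -0.58 to 0.01 with samples left out. For homozygous minus heterozygous, Gabra2 1443865_at was -0.08 with the replicate block and -0.08 without it, and -0.03 to 0.35 with samples left out. Gabra3 1421263_at was 0.13 with Xist as a covariate, 0.12 with the high-Xist samples only and -0.21 to 0.04 with samples left out. Gabra2 1455444_at was -0.03 to 0.30 and Gabrb1 1419719_at -0.02 to 0.25 with samples left out. The causes were not tested. Both Gabra3 probe sets kept their heterozygous call in every alternative fit per probe set, and 1436957_at its homozygous call. The mean over all probe sets of a gene, which has no test, moved Gabra3 to 2.30 in the homozygous sample and 2.47 in heterozygous tumors, Gabrb2 to 1.18 in the homozygous sample against normal and 1.77 against heterozygous tumors, and homozygous Gabra4 to 0.20 against normal, from -0.19. Under the other scalings the median of all tested probe sets lay between -0.0663 and 0.0159. Gabra5, normal Gabra3, heterozygous and normal Gabrb2 and tumor Slc6a11 lie below the median of all values, where signal over background limits what can be read. The same holds for Crhr1, Neurod1, Trhr, Gnrhr and Nr5a1 in heterozygous tumors, and for Adgre1, Mrc1 and Fcgr3 in normal pituitary.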
